A study of Mus musculus with 9 samples.

Results

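The miR-26 family of the mouse comprises miR-26a-5p and miR-26b-5p, and both were examined in small RNA sequencing libraries of Meis1/Hoxa9 preleukemic cells. The members were taken by name and were 2 of the 817 mature miRNAs in the count table. The libraries came from 5 Tut4/7 CTL and 4 Tut4/7 cKO samples. The cells were enriched for c-Kit from E14.5 fetal liver, received Meis1 and Hoxa9 by retrovirus and were grown with stem cell factor, IL-6 and IL-3. Both genotypes carry the Tut4 fl/fl and Tut7 fl/fl alleles. In Tut4/7 cKO cells these were deleted by Vav-iCre, whose promoter is active in hematopoietic cells, and Tut4/7 CTL cells, called WT in the labels, came from littermates without iCre. Messenger RNA was not measured in these libraries, so loss of Tut4 and Tut7 and the identity of the cells could not be checked against transcripts here.

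miRNAs repress messenger RNAs that pair with their seed, and members that share a seed are grouped into a family. The miR-26 genes lie in introns of genes for small phosphatases that act on the C-terminal domain of RNA polymerase II. TUT4 and TUT7 are terminal uridylyltransferases that add uridines to the 3′ ends of RNAs, including precursor and mature miRNAs. miR-26 is known as a TUT4 substrate in the control of IL-6, and Ezh2 is a known target of the family.

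The mature sequences, from the RefSeq table of build GRCm38.p6, are shown because the members share the seed and differ toward the 3′ end. Capitals mark seed bases 2 to 8.
mmu-miR-26a-5p: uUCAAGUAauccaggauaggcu
mmu-miR-26b-5p: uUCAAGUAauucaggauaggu
miR-26a-5p has 22 bases and miR-26b-5p has 21. Counted from 1 at the 5′ end, with the base of miR-26a-5p first, the substitutions are C11U and C21U.

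In GRCm39, miR-26a-5p lies on the plus strand at chr9:118860879-118860900, in intron 5 of Ctdspl, and at chr10:126831412-126831433, in intron 5 of Ctdsp2. miR-26b-5p lies on the plus strand at chr1:74433483-74433503, in intron 4 of Ctdsp1. No annotated exon of a transcript of these host genes overlaps the 3 mature sequences. A search of the whole genome found 2 copies of miR-26a-5p, 0 of them followed by T, and 1 copy of miR-26b-5p, which is followed by T. The genomic sequences are shown with the next 3 bases in capitals, since these decide whether a T at the end of a read can come from the genome.
miR-26a-5p locus, both copies: ttcaagtaatccaggataggctGTG
miR-26b-5p locus: ttcaagtaattcaggataggtTGT
A read of miR-26b-5p with 1 T past the mature end is therefore the same whether that T was transcribed or added, whereas a T after miR-26a-5p is not in the genome. A second T after miR-26b-5p is not in the genome either. Both mature sequences end in T, so a molecule that lost its last base and then gained a T looks like the mature form.

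A uridylated read is one that runs beyond the mature 3′ end, by 1, 2 or 3 Ts. Reads had been mapped without mismatches, so tails with other bases or of more than 3 Ts were not seen. The read sequences below carried most reads of the family. Ts past the mature end are in capitals, and the counts that follow are sums over the 9 libraries. On miR-26b-5p the first of these Ts is also encoded by the locus, so it may be transcribed or added.
miR-26a-5p, mature end: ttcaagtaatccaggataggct
miR-26a-5p, 1 T: ttcaagtaatccaggataggctT
miR-26a-5p, 2 Ts: ttcaagtaatccaggataggctTT
miR-26a-5p, 3 Ts: ttcaagtaatccaggataggctTTT
miR-26b-5p, mature end: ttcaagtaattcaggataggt
miR-26b-5p, 1 T: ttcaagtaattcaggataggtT
miR-26b-5p, 2 Ts: ttcaagtaattcaggataggtTT
miR-26b-5p, 3 Ts: ttcaagtaattcaggataggtTTT
For miR-26a-5p the mature form had 122089 reads, and the forms with 1, 2 and 3 Ts had 475, 93 and 21. For miR-26b-5p the mature form had 1340 reads, and the forms with 1, 2 and 3 Ts had 14504, 588 and 7. The form with 1 T was thus the prevalent read of miR-26b-5p and a rare read of miR-26a-5p. No read sequence of either member also fitted another mature miRNA with 3 Ts.

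The libraries held 175462 to 479342 miRNA reads. Replicates of a genotype differed by more than sampling noise in every pair. The study's methods describe replicates of mouse cells as coming from independent animals or embryos, and the labels give a replicate number only. Over all other miRNAs, Tut4/7 CTL replicate 2 had the lowest share of reads with 2 or 3 Ts of its genotype, 0.654% against 1.26% to 1.91%, and the Tut4/7 cKO libraries had 0.285% to 0.410%. Some results are therefore also given without that library.

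The first comparison asked whether the abundance of the family differed between genotypes. miR-26a-5p was among the most abundant miRNAs, at rank 4 to 9 of the Tut4/7 CTL and 3 to 10 of the Tut4/7 cKO libraries, and miR-26b-5p stood at rank 23 to 36 and 30 to 35. Neither passed the test between genotypes. Both members together made up 3.91% to 6.51% of reads in Tut4/7 CTL and 3.35% to 6.59% in Tut4/7 cKO.

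Normalized read counts of miR-26a-5p were 37601, 51640, 32576, 40309 and 37929 CPM (normalized counts scaled to a common library size) in Tut4/7 CTL replicates 1 to 5, and 36446, 41368, 63548 and 52796 CPM in Tut4/7 cKO replicates 1 to 4. The groups overlapped, and the highest value was in a Tut4/7 cKO library. The means were 40011 ± 7084 (SD, n = 5) and 48540 ± 12125 CPM (SD, n = 4). The log2 fold change was 0.28 (SE 0.21, adjusted P = 0.618, edgeR's quasi-likelihood test with Benjamini-Hochberg adjustment).

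miR-26b-5p had 8782, 7871, 6370, 6168 and 4650 CPM in Tut4/7 CTL and 3827, 4577, 6333 and 6937 CPM in Tut4/7 cKO. These groups overlapped too, with the lowest values in Tut4/7 cKO replicates 1 and 2. The means were 6768 ± 1603 (SD, n = 5) and 5419 ± 1459 CPM (SD, n = 4), and the log2 fold change was −0.32 (SE 0.29, edgeR adjusted P = 0.650). Thus 0 of the 2 members were called, against 0.488% of the 205 miRNAs tested, and the members' fitted values had opposite signs. Fewer cells that carry a miRNA and less of it per cell cannot be told apart in such samples.

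**Figure D1:**
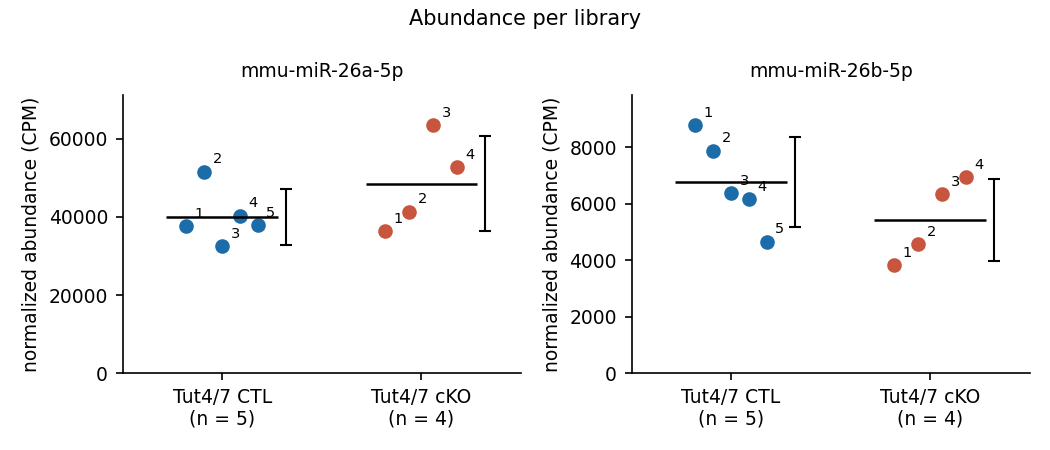
Normalized abundance in CPM (y axis) of each member in the 5 Tut4/7 CTL and 4 Tut4/7 cKO libraries (x axis). Points are libraries with their replicate number, horizontal lines are means and bars are SD. The groups overlap for both members, with miR-26a-5p between 32576 and 63548 CPM and miR-26b-5p between 3827 and 8782 CPM.

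Because the fitted values had opposite signs, the ratio of miR-26a-5p to miR-26b-5p reads was also compared, a choice made after the values were seen. It was 4.28, 6.56, 5.11, 6.54 and 8.16 in Tut4/7 CTL and 9.52, 9.04, 10.0 and 7.61 in Tut4/7 cKO. Only Tut4/7 CTL replicate 5 and Tut4/7 cKO replicate 4 crossed between the groups. The mean log2 ratio was 2.58 ± 0.36 (SD, n = 5) and 3.17 ± 0.17 (SD, n = 4), a difference of 0.59 (two-sided exact permutation test, unadjusted P = 0.0317). It did not pass after adjustment over the 7 exact tests run in all (adjusted P = 0.0741). Leaving out any one of Tut4/7 CTL replicates 1 to 4 or Tut4/7 cKO replicates 1 to 3 brought the unadjusted exact P to between 0.0571 and 0.0714. Without Tut4/7 CTL replicate 1 the difference was 0.47.

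The passenger arms were rare. miR-26a-2-3p, summed to 102 reads for Tut4/7 CTL against 86 for Tut4/7 cKO, did not pass the abundance test (log2 fold change −0.27, SE 0.46, edgeR adjusted P = 0.804). None of its 188 reads was uridylated, which allows a share of up to 1.60%, although a genomic T follows it. miR-26b-3p had 27 and 16 reads, of which 2 in Tut4/7 CTL and 0 in Tut4/7 cKO were uridylated. miR-26a-1-3p had 6 and 1 reads. These depths allowed no comparison of tails on the passenger arms.

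The second comparison asked how uridylation of each member differed between genotypes. The uridylated share of miR-26a-5p was lower in Tut4/7 cKO. That of miR-26b-5p, most of whose reads had the T that its locus also encodes, did not pass the test, and the difference between the members is the subject of the fourth comparison. Of miR-26a-5p reads, 1.38%, 0.168%, 0.914%, 1.58% and 1.07% were uridylated in Tut4/7 CTL and 0.207%, 0.0724%, 0.0468% and 0.115% in Tut4/7 cKO. The groups overlapped through Tut4/7 CTL replicate 2, which lay below Tut4/7 cKO replicate 1. The means were 1.02% ± 0.544 (SD, n = 5) and 0.110% ± 0.0702 (SD, n = 4), from 530 of 54704 and 59 of 69208 reads. The log2 odds ratio was −3.21 (SE 0.68, edgeR adjusted P = 0.000818), and −3.72 without Tut4/7 CTL replicate 2.

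The uridylated share of miR-26b-5p was 93.1%, 88.3%, 89.7%, 89.8% and 86.5% in Tut4/7 CTL and 88.0%, 89.3%, 90.4% and 85.6% in Tut4/7 cKO. The groups overlapped over most of their range, with means of 89.5% ± 2.42 (SD, n = 5) and 88.3% ± 2.07 (SD, n = 4). The log2 odds ratio was −0.19 (SE 0.44, edgeR adjusted P = 0.739). One of the 2 members was therefore called lower, where 59.4% of the 143 miRNAs tested were, with a median log2 odds ratio of −2.84 over all of them. By this ratio, 64 tested miRNAs lay below miR-26a-5p and 132 below miR-26b-5p. In Tut4/7 CTL, 128 of them had a higher uridylated share than miR-26a-5p and 3 a higher share than miR-26b-5p.

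**Figure D2:**
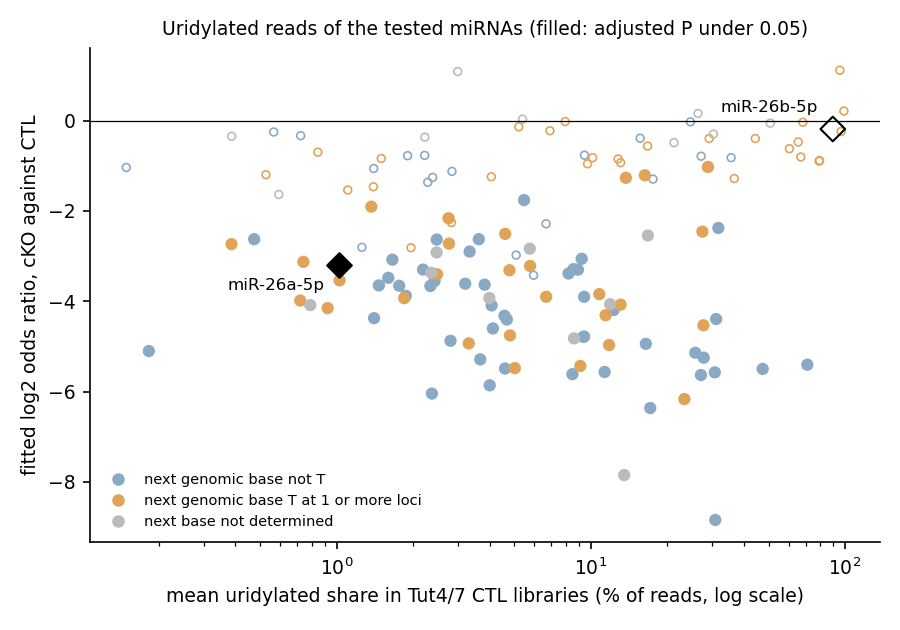
Fitted log2 odds ratio of a uridylated read, Tut4/7 cKO against Tut4/7 CTL (y axis), against the mean uridylated share in Tut4/7 CTL (x axis, %, log scale) for the 143 miRNAs tested. Colors give the next genomic base, filled points have an edgeR adjusted P under 0.05, and diamonds are the members: miR-26a-5p at −3.21 and 1.02%, miR-26b-5p at −0.19 and 89.5%.

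To separate the T that the miR-26b locus encodes from longer tails, reads with 1 T and with 2 or 3 Ts were tested apart. A single T on miR-26a-5p, which is not in the genome, was on 1.06%, 0.146%, 0.715%, 1.27% and 0.984% of reads in Tut4/7 CTL and 0.0751%, 0.0659%, 0.0396% and 0.0812% in Tut4/7 cKO. Every Tut4/7 CTL library lay above every Tut4/7 cKO library. The means were 0.834% ± 0.432 (SD, n = 5) and 0.0655% ± 0.0183 (SD, n = 4). The log2 odds ratio was −3.51 (SE 0.62, edgeR adjusted P = 0.000285). A 95% Wilson interval of these shares was at most 0.440 percentage points wide, and intervals here cover counting error only. That of Tut4/7 CTL replicate 2, from 20 reads, ran from 0.0947% to 0.226%. It overlapped those of Tut4/7 cKO replicates 1, 2 and 4, which reached 0.193%, 0.121% and 0.130% from 4, 10 and 17 reads. It did not overlap that of replicate 3, which reached 0.0709% from 11 reads.

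A single T on miR-26b-5p was on 83.6%, 86.6%, 83.9%, 82.8% and 82.0% of reads in Tut4/7 CTL and 84.1%, 88.7%, 89.5% and 85.2% in Tut4/7 cKO. Tut4/7 cKO libraries reached the higher values, but the groups overlapped. The means were 83.8% ± 1.72 (SD, n = 5) and 86.9% ± 2.63 (SD, n = 4), with a log2 odds ratio of 0.37 (SE 0.39, edgeR adjusted P = 0.456). Of all 149 miRNAs tested for 1 T, 54.4% were called lower, and 143 had a lower ratio than miR-26b-5p.

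Tails of 2 or 3 Ts pass the encoded T of miR-26b-5p, and both members had fewer of them in Tut4/7 cKO. On miR-26b-5p they were on 187, 36, 125, 123 and 56 reads in the Tut4/7 CTL libraries, against 22, 10, 26 and 11 in Tut4/7 cKO. As shares these are 9.54%, 1.73%, 5.79%, 6.98% and 4.54% against 3.94%, 0.595%, 0.940% and 0.400%. Tut4/7 CTL replicate 2 was low in its group and Tut4/7 cKO replicate 1 high in its own, so the groups overlapped. The means were 5.71% ± 2.89 (SD, n = 5) and 1.47% ± 1.66 (SD, n = 4). The log2 odds ratio was −2.45 (SE 0.81, edgeR adjusted P = 0.00570), from 527 of 9202 and 69 of 7757 reads. In a quasi-binomial model the call was lost (−2.76, adjusted P = 0.140), where 0 of the 74 miRNAs tested were called and 18 had an unadjusted P under 0.05.

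A pair of libraries moved these values. Without Tut4/7 cKO replicate 1 the Tut4/7 cKO mean was 0.645% ± 0.273, and the log2 odds ratio was −3.11 (edgeR adjusted P = 0.00103). Without Tut4/7 CTL replicate 2 the Tut4/7 CTL mean was 6.71% ± 2.13, and the ratio was −2.79. Tut4/7 cKO replicate 1 was the library with the fewest miR-26b-5p reads, 559, and its Wilson interval was 3.27 percentage points wide, the widest of the 9. Its share of 2 or 3 Ts over all other miRNAs was 0.365%, within the 0.285% to 0.410% of its genotype. By the uridylated share over all other miRNAs it was not typical, at 19.6% against 7.37% to 12.3% in the other Tut4/7 cKO libraries. The Tut4/7 CTL libraries had 10.8% to 25.4%.

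miR-26a-5p had 27, 3, 22, 36 and 9 reads with 2 or 3 Ts in Tut4/7 CTL and 7, 1, 2 and 7 in Tut4/7 cKO. The shares were 0.322%, 0.0219%, 0.199%, 0.312% and 0.0894% against 0.132%, 0.00659%, 0.00720% and 0.0334%. As for miR-26b-5p, Tut4/7 CTL replicate 2 was low and Tut4/7 cKO replicate 1 high, and the groups overlapped. The means were 0.189% ± 0.133 (SD, n = 5) and 0.0447% ± 0.0592 (SD, n = 4), or 0.0157% ± 0.0153 in Tut4/7 cKO without replicate 1. The log2 odds ratio was −2.49 (SE 0.83, edgeR adjusted P = 0.00611) and −3.36 without that library. The call was lost without Tut4/7 CTL replicate 1 (−2.18, edgeR adjusted P = 0.0589) or Tut4/7 cKO replicate 3 (−1.95, edgeR adjusted P = 0.0699). As for miR-26b-5p, it was also lost in the quasi-binomial model (−2.85, adjusted P = 0.209). In edgeR with all libraries, 2 of 2 members were thus called lower, where 62.2% of the 74 miRNAs tested were. The median ratio over all 74 was −3.59.

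**Figure D3:**
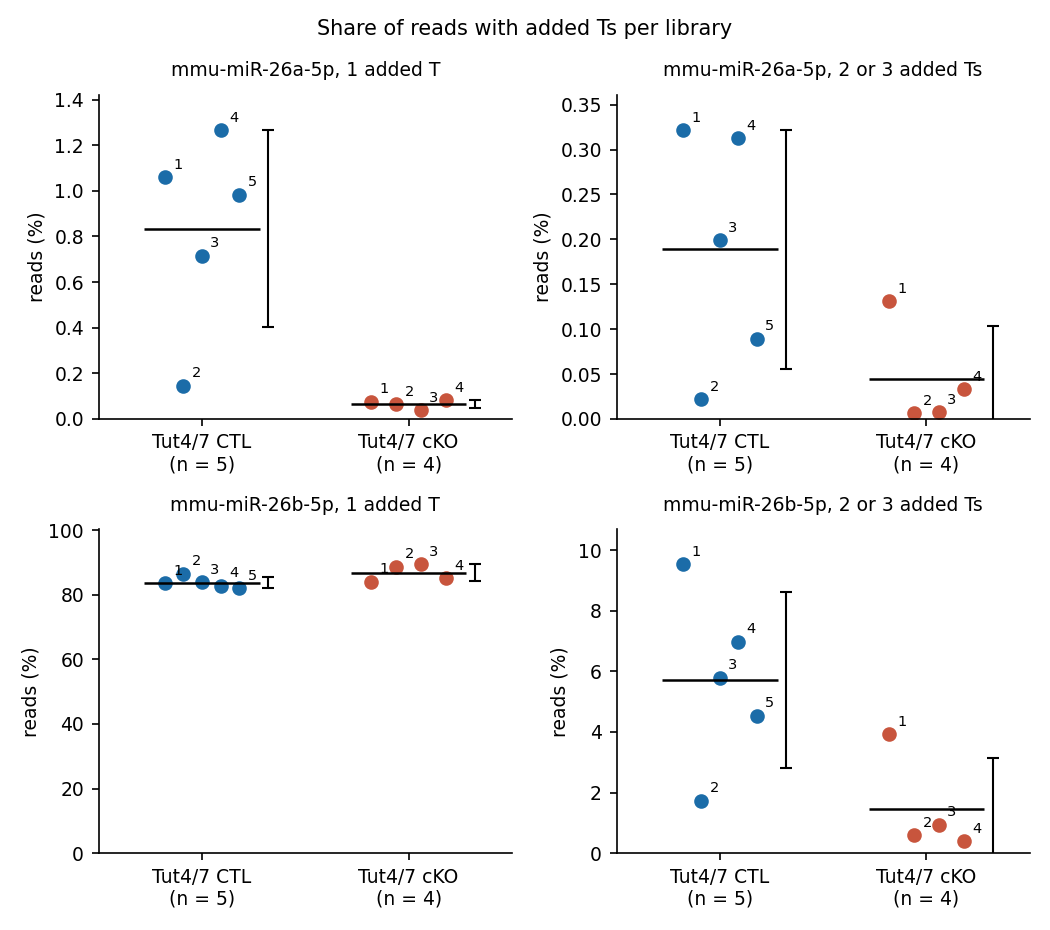
Share of reads (y axes, %, with separate scales) with 1 T (left) and with 2 or 3 Ts (right) past the mature end of miR-26a-5p (top) and miR-26b-5p (bottom), by genotype (x axis). The panels call these Ts added, although on miR-26b-5p the first of them is also encoded by the locus. Points are libraries with their replicate number, lines are means and bars are SD, drawn only above 0. The points for a single T on miR-26a-5p do not overlap between genotypes, at 0.146% or more against 0.0812% or less, although some of their Wilson intervals do. A single T on miR-26b-5p is on 82.0% to 89.5% of reads in both.

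The share of 2 or 3 Ts among uridylated reads alone was also compared, a choice made after the values were seen. For miR-26b-5p, 10.2%, 1.96%, 6.45%, 7.77% and 5.24% of such reads had 2 or 3 Ts in Tut4/7 CTL and 4.47%, 0.667%, 1.04% and 0.467% in Tut4/7 cKO. The groups overlapped, as Tut4/7 CTL replicate 2 lay below Tut4/7 cKO replicate 1. The share was lower in Tut4/7 cKO (log2 odds ratio −2.42, SE 0.61, edgeR adjusted P = 0.000834). For miR-26a-5p it was 23.3%, 13.0%, 21.8%, 19.8% and 8.33% against 63.6%, 9.09%, 15.4% and 29.2%, and it did not pass the test (0.94, SE 0.61, edgeR adjusted P = 0.295). The Tut4/7 cKO values for miR-26a-5p rest on 11 to 24 reads per library. Of the 74 miRNAs tested for this share in edgeR, 14 were called lower and 2 higher. This share is not the same measure in the members. Most uridylated reads of miR-26b-5p have only the T that its locus also encodes, whereas no T after miR-26a-5p is in the genome.

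Reads with 3 Ts were few. For miR-26b-5p they numbered 2, 0, 3, 2 and 0 in Tut4/7 CTL and 0 in each Tut4/7 cKO library, where the zeros allow a share of up to 0.108% to 0.537%. For miR-26a-5p they numbered 8, 1, 4, 7 and 0 in Tut4/7 CTL and 0, 1, 0 and 0 in Tut4/7 cKO.

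The third comparison addressed where reads ended. Most miR-26a-5p reads ended exactly at the mature end, with a mean of 98.1% ± 0.543 (SD) over Tut4/7 CTL and 99.2% ± 0.245 (SD) over Tut4/7 cKO libraries, against 7.49% ± 1.84 and 8.45% ± 1.94 of miR-26b-5p reads. Reads that ended before the mature end made up 0.750% to 0.924% of miR-26a-5p in Tut4/7 CTL and 0.487% to 0.921% in Tut4/7 cKO (log2 odds ratio −0.26, SE 0.20, edgeR adjusted P = 0.502). For miR-26b-5p they made up 2.19% to 3.73% and 2.71% to 3.58% (0.10, SE 0.22, edgeR adjusted P = 0.874). Neither member was called, where 4.74% of the 190 miRNAs tested were. The sign for miR-26b-5p was not stable, as it reversed when only reads that did not pass the mature end were counted (−0.089) and without Tut4/7 CTL replicate 1.

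The mean 3′ end lay at −0.00625 ± 0.00846 bases from the mature end for miR-26a-5p in Tut4/7 CTL (SD, n = 5) and −0.0150 ± 0.00331 in Tut4/7 cKO (SD, n = 4; two-sided exact permutation test, P = 0.111). For miR-26b-5p it lay at 0.880 ± 0.0615 and 0.825 ± 0.0300 bases (exact P = 0.127). The miR-26b-5p reads thus ended close to 1 base past the mature end in both genotypes, and neither difference passed the test. Both had an adjusted P of 0.152 over the 6 exact tests of the mean ends, of the members against each other and of the members against other miRNAs. This family leaves out the test of the read ratio, which was added later.

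**Figure D4:**
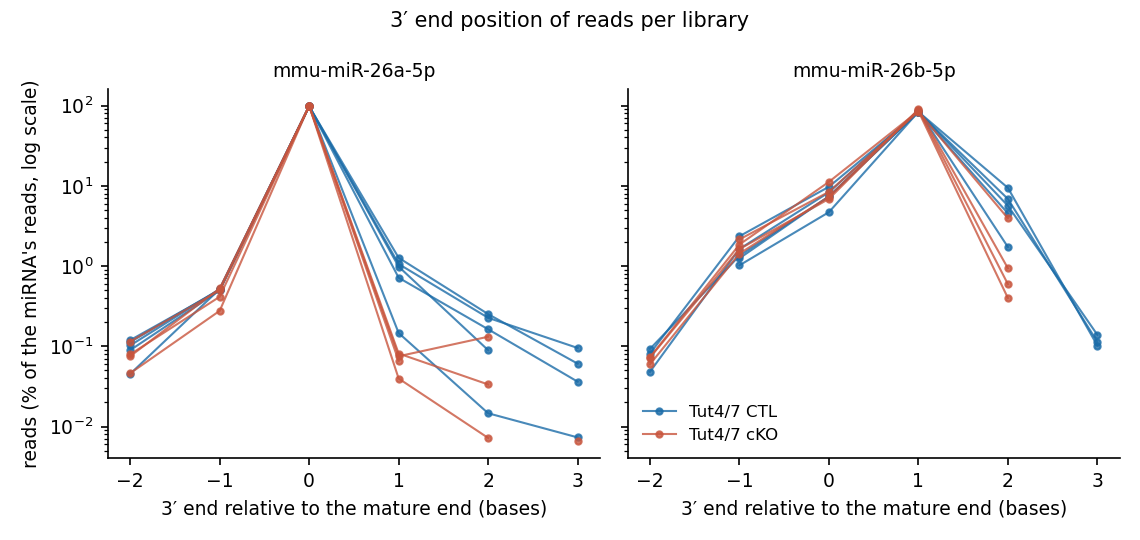
Share of each member's reads (y axis, %, log scale) that end at each position from −2 to 3 bases relative to the mature 3′ end (x axis), with a line per library and shares of 0 not drawn. miR-26a-5p peaks at the mature end and miR-26b-5p 1 base past it in all 9 libraries, and 4 of the 5 Tut4/7 CTL lines stand at 0.715% or more at 1 T of miR-26a-5p, replicate 2 at 0.146% and the Tut4/7 cKO lines at 0.0812% or less.

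The fourth comparison tested the difference between the members itself. The log2 odds of a uridylated read were higher for miR-26b-5p than for miR-26a-5p by 9.90, 12.1, 9.88, 9.09 and 9.20 in Tut4/7 CTL and by 11.7, 13.4, 14.2 and 12.3 in Tut4/7 cKO. Only Tut4/7 CTL replicate 2 lay among the Tut4/7 cKO values. The means were 10.0 ± 1.21 (SD, n = 5) and 12.9 ± 1.13 (SD, n = 4), and the gap widened by 2.89 (two-sided exact permutation test, P = 0.0317), which did not pass after adjustment over the 6 exact tests (adjusted P = 0.0952). For 2 or 3 Ts the gap was 5.26 ± 0.626 and 5.29 ± 1.39, a difference of 0.04 (exact P = 1), whose sign changed when single libraries were left out, from −0.44 to 0.62. No difference between the members in the response of tails of 2 or 3 Ts was thus detected, at a spread between libraries of 0.626 to 1.39. This class is not alike in the members, because the first T of miR-26b-5p is also encoded. Most miR-26b-5p reads of the class had 2 Ts, 588 against 7 with 3 Ts. Reads of miR-26b-5p with 2 Ts were not tested against reads of miR-26a-5p with 1 T.

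**Figure D5:**
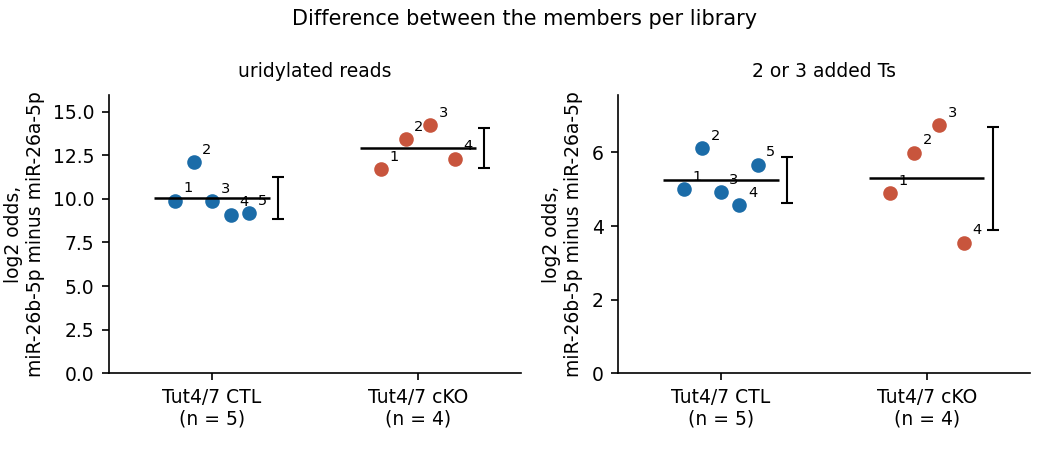
Log2 odds of miR-26b-5p minus those of miR-26a-5p (y axis) for uridylated reads (left) and for reads with 2 or 3 Ts past the mature end (right), by genotype (x axis). On miR-26b-5p the first of these Ts is also encoded by the locus. Points are libraries with their replicate number, lines are means and bars are SD. For uridylated reads the means are 10.0 and 12.9, with Tut4/7 CTL replicate 2 at 12.1 among the Tut4/7 cKO libraries, and for 2 or 3 Ts they are 5.26 and 5.29.

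Each member was also set against miRNAs with the same kind of next genomic base. In 125 of the 143 miRNAs tested this base was determined. Among those followed by T, other than miR-26b-5p, 28 of 56 were called lower in Tut4/7 cKO, and among those not followed by T, other than miR-26a-5p, 47 of 67 were. The log2 odds of a uridylated miR-26b-5p read exceeded the median of 47 other miRNAs followed by T by 7.10 ± 0.74 (SD) over the 5 Tut4/7 CTL libraries and 9.65 ± 0.84 (SD) over the 4 Tut4/7 cKO libraries. The groups did not overlap, and the difference of 2.55 had the smallest P that this two-sided exact test can give (P = 0.0159; adjusted over the 6 tests 0.0952). It did not pass after adjustment, and a single test at this smallest P cannot pass over 6 tests. No conclusion is drawn from it. The 47 miRNAs behind this median, and the 50 used below for miR-26a-5p, had 10 or more reads in all 9 libraries. They also had uridylated reads in 3 or more Tut4/7 CTL libraries. This entry rule can itself lower the class median in Tut4/7 cKO, and a class chosen blind to genotype was not tested. The difference also sets a share of 85.6% to 93.1% per library against a class with a far lower median. That median averaged 6.31% in Tut4/7 CTL and 0.731% in Tut4/7 cKO, against miR-26b-5p means of 89.5% and 88.3%. The difference thus came with a lower class median and not with a higher miR-26b-5p share.

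Relative to the median of 50 other miRNAs not followed by T, miR-26a-5p stood at −2.11 ± 0.39 in Tut4/7 CTL (SD, n = 5) and −2.64 ± 0.51 in Tut4/7 cKO (SD, n = 4; difference −0.52, exact P = 0.127). With 0.1 in place of 0.5 added to each count the difference was 0.73 (exact P = 0.0476). It was −0.57 from reads that start at the first mature base (exact P = 0.0476) and −0.76 without Tut4/7 cKO replicate 4 (exact P = 0.0357), so no direction can be given. As plain shares without a constant, the median of these miRNAs was 3.58% ± 1.82 in Tut4/7 CTL (SD, n = 5) and 0.0787% ± 0.00780 in Tut4/7 cKO (SD, n = 4), against means of 1.02% and 0.110% for miR-26a-5p. In Tut4/7 cKO the miR-26a-5p share was above 0.0787%, the mean of the library medians, in replicates 1 and 4 (0.207% and 0.115%). It was below that mean in replicates 2 and 3 (0.0724% and 0.0468%). The share was not set against the median of each single library, so no order is given for that genotype.

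Finally, the miRNAs whose values over the 9 libraries were most like those of each member were named by Pearson's correlation, as a description, since all values share libraries and depth. In log2 CPM these were miR-23b-3p (r = 0.96), miR-27b-3p (0.90) and miR-532-5p (0.86) for miR-26b-5p, and miR-1956 (0.78), miR-503-3p (0.77) and miR-140-5p (0.77) for miR-26a-5p, of 204 compared. In log2 odds of a uridylated read they were miR-106b-3p (0.99), let-7f-5p (0.99) and let-7g-5p (0.98) for miR-26a-5p, of 114 compared. Unlike miR-26a-5p, all 3 are followed by a genomic T at 1 or more loci. They were called lower in Tut4/7 cKO, as were 59.4% of the miRNAs tested, and a drop shared between genotypes raises such correlations. let-7 is the classical family of TUT4 and TUT7 substrates. For miR-26b-5p the likeness was lower, with miR-181d-5p (0.81), miR-3963 (0.61) and miR-10a-5p (0.59).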

How the data were processed

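Small RNA of 15 to 40 nt was sequenced. Adapters were trimmed by the authors (cutadapt 5.0), and reads were placed without mismatches on miRBase mature sequences with 3 Ts appended (Bowtie 1.3.1). The deposited values are raw counts for each mature miRNA and each read sequence, not normalized. The miRBase release and genome build are not given in the sources used here. Each count equaled the sum of its read sequences. A mapped read had 16 to 28 nt.

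Abundance was tested in edgeR 4.0.16 (R 4.3.3) with TMM normalization, for miRNAs that reached 10 reads in 4 or more libraries. Shares were tested in edgeR as the interaction of read class and genotype with a term per library, so that fold changes are log2 odds ratios. Entry needed 10 or more reads in 5 or more libraries, plus a uridylated read in 3 Tut4/7 CTL libraries or, for the other classes, a read of the class in 3 of the 9 libraries. P values were adjusted over all miRNAs tested, and values under 0.05 were called. SE is the fold change over the square root of F. Odds had 0.5 added to each count, and exact permutation tests (SciPy 1.17.1) were two-sided, with a smallest P of 0.0159. Limits for zeros used 3 counts. Reads carry no molecular identifiers, so intervals and limits cover counting error only.

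Of the 817 names in the count table, 707 matched the RefSeq table, 702 with the same length. Named miRNAs were the members, their passenger arms and, per member, the 3 most correlated miRNAs in each of the 2 measures. The members and lists were chosen with earlier results of these data known. Alternatives were DESeq2 1.42.0, DESeq2 size factors, other filters, read classes and constants, a quasi-binomial model, a replicate block and omission of each library.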

Additional observations from a re-analysis of the deposited data

Results flagged for a closer look

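The share of miR-26b-5p reads with 2 or 3 Ts past the mature end in Tut4/7 cKO replicate 1, 3.94%, stood apart from the other 3 libraries of its genotype (0.400% to 0.940%) by a gap test within the group. It was the only such value among 24 groups of values tested, where chance alone flags about 1 in 20. It rests on 22 of 559 reads.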

How the results depend on the processing

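Of 224 values recomputed under an alternative, 192 kept their direction and side of the threshold. Here the threshold of 0.05 was set on the adjusted P of the tests over all miRNAs, but on the unadjusted P of the exact tests. None of the exact tests passed after adjustment. The lower uridylated share and the lower share of 1 T of miR-26a-5p did so in every alternative run, with edgeR or quasi-binomial adjusted P from 2.06e-16 to 0.0457 for the former. Abundance of both members, and the uridylated share and 1 T of miR-26b-5p, passed the threshold in none. In the quasi-binomial model 2 or 3 Ts gave −2.85 for miR-26a-5p (adjusted P = 0.209) and −2.76 for miR-26b-5p (adjusted P = 0.140), and among T-ending reads only, an alternative added after seeing the data, 0.94 for miR-26a-5p. With single libraries left out, 2 or 3 Ts ranged from −3.36 to −1.95 for miR-26a-5p and ends before the mature end from −0.0050 to 0.19 for miR-26b-5p, which gave −0.089 when only reads that did not pass the mature end were counted. miR-26a-5p against its class gave 0.73 with 0.1 added to each count, −0.57 from reads that start at the first base, and −0.76 to −0.35 without single libraries. Without single libraries the difference in log2 read ratio ranged from 0.47 to 0.70, the widening of the gap between members for uridylated reads from 2.45 to 3.40 and that for 2 or 3 Ts from −0.44 to 0.62. Replicate numbers 1 to 4 do not pair the samples by the labels, same-numbered deviations from the group means correlated at −0.22 to 0.41 (log2 CPM) and −0.049 to 0.11 (log2 odds), and 2 of 8 libraries correlated best with their own number in log2 CPM and 3 in log2 odds. With a replicate block, 4 pairs cannot give an exact P below 0.125, and the read ratio was 0.70, miR-26b-5p against its class 2.39 and the gap for uridylated reads 2.68; it changed no other call on the members and gave 73, 62 and 35 lower calls for uridylated reads, 1 T, and 2 or 3 Ts, 3 calls for ends before the mature end and 0 for abundance (21 at an unadjusted P under 0.05 in edgeR). Counts of lower calls were 28 of 143 (uridylated), 26 of 149 (1 T) and 0 of 74 (2 or 3 Ts, 18 at an unadjusted P under 0.05, against 46 in edgeR) in the quasi-binomial model, and 48 of 73 and 45 of 72 for uridylated reads and 1 T with at least 200 reads, where fewer miRNAs were tested. For abundance, DESeq2 called 5 lower and 6 higher, and no filter 8 and 10. For ends before the mature end, calls ranged from 2 to 11 against 9. The cause of these changes was not tested. Tails of 2 or 3 Ts on miR-26a-5p, with 1 to 36 reads per library, are limited by depth.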
